A study of Mus musculus with 22 samples.

Results

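Arterial smooth muscle cells of the stomach were set against those of the intestine, over all genes measured. The members are the 3 libraries labelled stomach and the 4 labelled intestine, 7 of the 22 libraries in a series that sorted such cells from 7 mouse organs by fluorescence-activated cell sorting and sequenced their RNA. Both groups carried the same genotype, Cspg4-Dre/Acta2-CreERT/R26-GFP, in which one recombinase follows the mural cell gene Cspg4, a tamoxifen-inducible Cre follows the smooth muscle actin gene Acta2, and a fluorescent reporter sits at the R26 locus. Both also received tamoxifen at 0.75 mg per 10 g body weight on 3 days, so the groups differ by organ alone as far as the labels go. Libraries were made with SMART-Seq v4 from at most 10 ng of total RNA. This kit copies whole transcripts from small inputs and does not mark their strand. The labels give no age or sex, and nothing in them ties a library to its own animal. The p-values therefore cover the spread among these 7 samples, part or all of which may be technical.

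Smooth muscle cells of small arteries contract and relax to set the flow to an organ, through receptors for endothelin, angiotensin, purines, catecholamines and prostanoids, through potassium and calcium channels, and through cyclic nucleotide signalling. In the gut, the muscle and connective cells of each segment form from mesenchyme that is patterned along the body axis by Hox genes and by regional transcription factors, among them Barx1 in the stomach and Nkx2-3 in the intestine. Hedgehog, bone morphogenetic protein (BMP), Wnt and retinoic acid signals pass between that mesenchyme and the epithelium it surrounds.

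The deposited values are a signal, the read count of a gene divided by a factor of its library, and the number of reads behind a value was rebuilt from what 1 read is worth. Rebuilt depth was 8520769, 10133278 and 11527676 reads in stomach 1 to 3 and 11346634, 12708422, 12574031 and 9176693 reads in intestine 1 to 4. Rebuilt reads of strongly expressed genes lay near a ceiling. Myl9, a myosin light chain, had between 2140 and 2225 rebuilt reads in all 7 libraries, a 1.04-fold range, and Acta2 had between 2994 and 3186. The signal of such genes follows the worth of 1 read, whose mean was 0.24 higher on the log2 scale in stomach than in intestine. Genes that reached 0.5 reads per exonic base in any of the 7 libraries are called near the ceiling below.

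Genes that define smooth muscle were present in every library. Values of a gene are given as its signal in stomach libraries 1 to 3 and intestine libraries 1 to 4, in that order. Acta2 was at 1992, 1697 and 1459 in stomach and 1485, 1376, 1343 and 1782 in intestine (adjusted p = 0.263). Myh11, the smooth muscle myosin heavy chain, was at 6905, 6320 and 5302 in stomach and 5975, 5338, 5350 and 6076 in intestine (adjusted p = 0.413). Both ranges overlapped between the organs, and both genes lie near the ceiling. Cspg4, the mural cell proteoglycan NG2, was under the ceiling and was at 491, 482 and 622 in stomach and 1218, 1512, 1146 and 1038 in intestine (log2 difference -1.20 ± 0.14 (SE), adjusted p = 5.48e-05). All 4 intestine libraries lay above all 3 of stomach, though in the fit over all 22 libraries the adjusted p was 0.874. The Y-linked gene Ddx3y, chosen after its values were seen, was present in all 7 libraries, at 649, 799 and 708 in stomach and 860, 758, 736 and 480 in intestine (adjusted p = 0.856).

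The libraries grouped by organ. Across genes, log2 values of 2 libraries correlated at 0.954 to 0.976 within an organ (9 pairs) and at 0.768 to 0.812 between the organs (12 pairs). Of 28099 genes in the table, 14934 reached a signal of 10 in 3 or more of the 7 libraries and were tested with limma on log2(signal + 1), fitted to these 7 libraries. A gene passed at a Benjamini-Hochberg adjusted p under 0.05, and differences are stomach minus intestine. In all, 5631 genes passed (37.7%), of which 2901 were higher in stomach (19.4%) and 2730 higher in intestine (18.3%). At least 2-fold differences were found for 2973 of them (19.9%), 1542 higher in stomach (10.3%) and 1431 higher in intestine (9.58%). Values of the 2 organs did not overlap for 6424 tested genes (43.0%). The median log2 difference over all tested genes was 0.017. Among the 12591 genes under the ceiling, 2365 were higher in stomach and 2197 higher in intestine.

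These counts depend on which libraries enter the fit. Fitted together with the 15 libraries of the other organs, 1035 of 16917 genes passed, 564 higher in stomach and 471 higher in intestine. Of these, 983 were among the genes tested here, and all 983 also passed in the fit to the 7 libraries, in the same direction. The fit to 7 libraries was chosen with both counts known. Counts from the wider fit therefore stand beside most gene groups below. Shares of all genes, 19.4% and 18.3%, are the background for counts of the fit to 7 libraries. For counts of the wider fit the background is far lower, 564 and 471 of 16917 genes. That fit filtered genes over all 22 libraries, so its number of tested members can differ. It tested 61 transcription factors of gut mesenchyme, for example, against 52 here. Some libraries of other organs are shallow, with 629456, 1540366 and 1927765 rebuilt reads in aorta 1 to 3 and 817157 in heart 3. In aorta 1, 1 read was worth 9.4205 units of signal. The wider fit takes the spread of a gene from all 22 libraries, and what the shallow ones add to it was not tested.

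**Figure D1:**
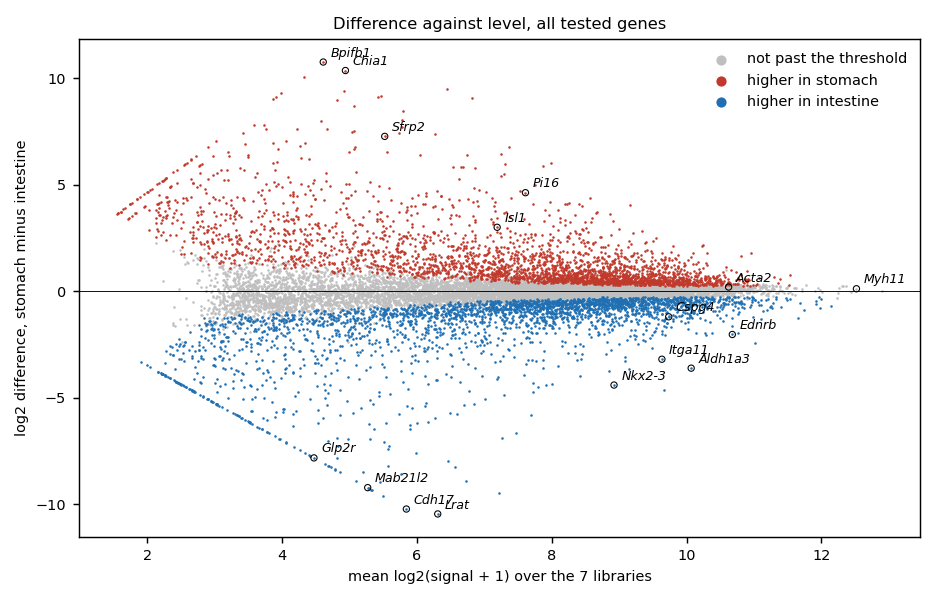
Log2 difference, stomach minus intestine, against the mean log2(signal + 1) over the 7 libraries, for the 14934 tested genes. Red points passed the test higher in stomach (2901), blue points higher in intestine (2730), and grey points did not pass. The straight lower and upper left edges are genes listed at or near 0 in all libraries of one organ.

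Markers of cells other than smooth muscle moved with organ and led the largest differences. The summed signal of the gastric epithelium list was 37542, 34991 and 29785 in stomach and 8330, 1346, 3916 and 5249 in intestine, and 22 of its 25 tested members were higher in stomach and 0 higher in intestine, with 17 and 0 in the fit over all 22 libraries. Atp4a, the proton pump of acid-secreting parietal cells, was at 4803, 4147 and 3422 in stomach and 7, 2, 9 and 13 in intestine, and Muc5ac, the mucin of the gastric surface, at 3687, 4269 and 3251 in stomach and 3, 0, 13 and 12 in intestine. The intestinal epithelium list summed to 8873, 10707 and 8362 in stomach and 19706, 18782, 22650 and 21584 in intestine, with 5 members higher in stomach and 34 higher in intestine of 43, and 1 and 28 in the wider fit. Cdh17, the intestinal cadherin, was listed at 0 in all 3 stomach libraries and at 1274, 933, 1705 and 1005 in intestine (adjusted p = 2.04e-09). A list shared by all epithelia summed to 19664, 19718 and 15971 in stomach and 12941, 10959, 14233 and 15026 in intestine. These levels go against a pure arterial smooth muscle label in both organs.

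Further lists moved as well. Visceral smooth muscle genes, with Barx1, Nkx2-3, Hhip, Ntf3 and Tacr2 among them, summed to 8002, 7444 and 6823 in stomach. In intestine they summed to 10915, 9816, 9622 and 11441. Of 16 tested, 5 were higher in stomach and 5 in intestine, with 1 and 3 over the 22 libraries. Whether their reads came from arterial or visceral muscle was not tested. Pancreatic acinar markers summed to 3664, 3396 and 3585 in stomach and 12800, 10586, 6063 and 11345 in intestine. Of 22 tested, 3 were higher in stomach and 16 in intestine, with 2 and 14 over the 22 libraries. Prss2, a trypsinogen whose near-identical relatives make its counts uncertain, was listed at 0 in the stomach libraries and at 682, 607, 449 and 750 in intestine. Lymphoid markers summed to 1228, 1366 and 1143 in stomach and 2502, 2381, 3468 and 3258 in intestine. In that list Igha, the heavy chain of immunoglobulin A, was listed at 0 in stomach and at 690, 614, 890 and 1031 in intestine (adjusted p = 2.04e-09). Striated muscle markers were higher in stomach, where they summed to 3649, 3072 and 2817 against 851, 626, 715 and 792 in intestine. Of 15 tested, 12 were higher in stomach and 2 in intestine, with 3 and 1 over the 22 libraries. Without any one stomach library, 7 of 10 tested were higher in stomach. Acta1, the skeletal muscle actin, was at 1160, 980 and 925 in stomach and 11, 18, 13 and 31 in intestine. Macrophage markers were low, at 189, 211 and 163 in stomach and 225, 205, 313 and 230 in intestine, and none of the listed mast cell or erythroid markers was tested. The endothelial sums of 9935, 8257 and 9758 in stomach and 10673, 7659, 7494 and 8460 in intestine overlapped. What these cells or their RNA add to each result below was not tested, and in bulk libraries fewer cells of a type and less RNA per cell cannot be told apart.

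**Figure D2:**
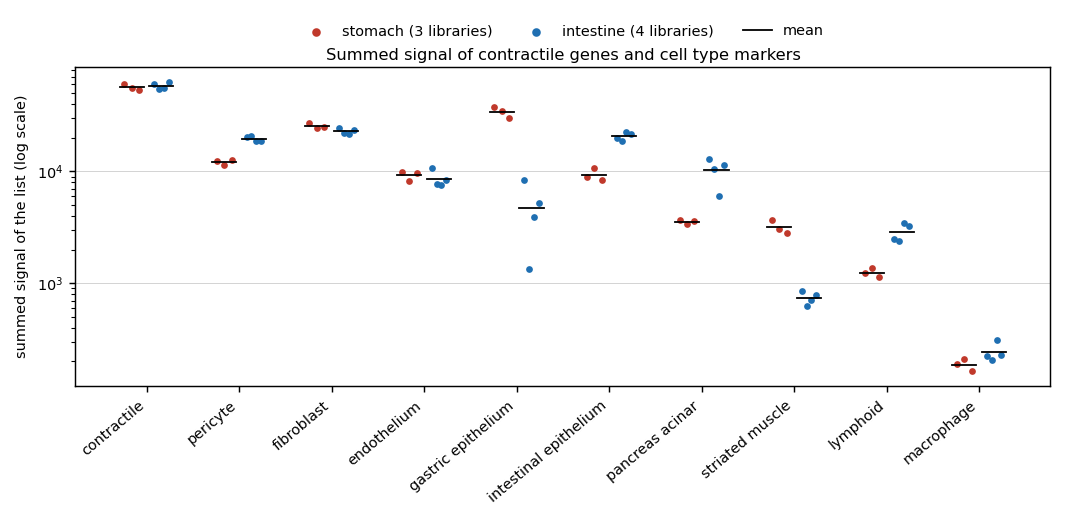
Summed signal (log scale) of contractile genes and of 9 lists of cell type markers, with 1 point per library (red, 3 stomach; blue, 4 intestine) and a line at the mean. Contractile sums overlap between the organs, gastric and striated muscle sums are higher in every stomach library, and pericyte, intestinal, pancreatic and lymphoid sums are higher in every intestine library.

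Transcription factors that pattern gut mesenchyme separated the organs. Of 52 tested members of that list, 21 were higher in stomach and 13 higher in intestine (median log2 difference 0.27), against 5 and 2 in the fit over all 22 libraries. Nkx2-3, a homeobox factor of intestinal and splenic mesenchyme (ENSMUSG00000044220, mm39 chr19:43600764-43604331), was at 75, 76 and 103 in stomach and 1758, 1710, 1612 and 2144 in intestine (log2 difference -4.41 ± 0.15 (SE), adjusted p = 5.95e-09). Its intestine mean was 21.3-fold that of stomach, with a wide gap between the groups. Hand1, a basic helix-loop-helix factor of gut and heart development (ENSMUSG00000037335, mm39 chr11:57719531-57723644), was listed at 0 in all 3 stomach libraries and at 89, 30, 83 and 58 in intestine (adjusted p = 1.91e-06). Mab21l2, which is not in that list and is known from eye and gut development (ENSMUSG00000057777, mm39 chr3:86452888-86455590), was likewise listed at 0 in stomach and at 575, 649, 546 and 616 in intestine (adjusted p = 2.04e-09). All 3 also passed over the 22 libraries, with adjusted p = 0.0324, 7.01e-05 and 1.47e-09. Smaller differences in the same direction were found for Tshz3, a teashirt zinc finger factor, at 99, 47 and 67 in stomach and 197, 332, 174 and 174 in intestine (log2 difference -1.62 ± 0.29 (SE), adjusted p = 0.00107). Foxf1, a forkhead factor of gut mesenchyme and a hedgehog target, was at 1515, 1425 and 1238 in stomach and 1688, 1665, 1537 and 1988 in intestine (adjusted p = 0.051). It missed the threshold narrowly here and passed it in 10 other settings, among them limma with median-of-ratios scaling (adjusted p = 0.0437).

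In the other direction, Barx1, the homeobox factor of stomach mesenchyme (ENSMUSG00000021381, mm39 chr13:48816474-48819983), was at 1093, 905 and 959 in stomach and 350, 22, 212 and 330 in intestine (log2 difference 2.67 ± 0.75 (SE), adjusted p = 0.0156). Isl1, a LIM-homeodomain factor, was at 460, 478 and 495 in stomach and 119, 14, 82 and 85 in intestine (log2 difference 3.00 ± 0.56 (SE), adjusted p = 0.00142). All stomach libraries lay above all of intestine for both genes, but intestine 2 stood far below the other 3 intestine libraries. That library also had the lowest gastric marker sum, and the part of this in the 2 results was not tested. Without intestine replicate 2 the log2 difference of Barx1 was 1.75. With robust variance estimation Barx1 missed the threshold (adjusted p = 0.09), and over all 22 libraries neither passed (adjusted p = 0.105 and 0.177). Irx5, an Iroquois homeobox factor, was at 91, 86 and 104 in stomach and 5, 2, 2 and 12 in intestine (log2 difference 4.20 ± 0.50 (SE), adjusted p = 6.09e-05). Irx3, its neighbour on the same chromosome, was at 39, 16 and 51 in stomach and 1, 0, 0 and 3 in intestine (log2 difference 4.29 ± 0.61 (SE), adjusted p = 0.000225). Pitx1, Gata6 and Gata4, picked from the list after their values were seen, were also higher in stomach. Pitx1 was at 910, 778 and 887 in stomach and 230, 89, 206 and 218 in intestine (log2 difference 2.29 ± 0.28 (SE), adjusted p = 7.44e-05). Gata6 was at 869, 958 and 901 in stomach and 141, 93, 164 and 157 in intestine (log2 difference 2.74 ± 0.19 (SE), adjusted p = 1.02e-06). Gata4 was at 2114, 2229 and 1795 in stomach and 418, 359, 646 and 522 in intestine (log2 difference 2.10 ± 0.18 (SE), adjusted p = 4.85e-06). Both GATA factors are also known from gastric epithelium. Gastric markers were higher in the same libraries, and their part in the GATA difference was not tested.

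Hox genes of the anterior and middle groups were higher in intestine. Of 16 tested, 12 were higher in intestine and 0 in stomach, with a median log2 difference of -1.20, and 11 of the 12 differed at least 2-fold. Without stomach replicate 2, 1 member passed toward stomach. None lay near the ceiling. Over all 22 libraries 1 passed, which was Hoxc6 (ENSMUSG00000001661, mm39 chr15:102906689-102920313). Hoxc6 was at 25, 16 and 38 in stomach and 141, 213, 164 and 214 in intestine (log2 difference -2.81 ± 0.29 (SE), adjusted p = 2.24e-05). Hoxc5 was at 59, 55 and 73 in stomach and 159, 274, 199 and 241 in intestine (log2 difference -1.77 ± 0.22 (SE), adjusted p = 7.43e-05). Hoxc4 was at 94, 57 and 96 in stomach and 260, 303, 235 and 285 in intestine (log2 difference -1.74 ± 0.21 (SE), adjusted p = 5.89e-05). Hoxc5 and Hoxc6 overlap on the same strand by the table's coordinates, so the split of reads between these 2 genes is uncertain. Hoxa5 lies in another cluster and was at 87, 81 and 113 in stomach and 278, 328, 246 and 352 in intestine (log2 difference -1.67 ± 0.18 (SE), adjusted p = 3.09e-05). For each of these 4 genes every intestine library exceeded every stomach library. Hoxd9 was the only posterior member tested, at 23, 14 and 12 in stomach and 10, 10, 13 and 3 in intestine (adjusted p = 0.178). Among the MEIS, PBX and PKNOX cofactors that bind DNA with Hox proteins, 4 of 10 were higher in intestine, 0 in stomach and 0 over all 22 libraries, while without intestine replicate 4, 1 passed toward stomach. Meis3 led them, at 238, 237 and 253 in stomach and 367, 513, 411 and 503 in intestine (log2 difference -0.87 ± 0.14 (SE), adjusted p = 0.000591).

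**Figure D3:**
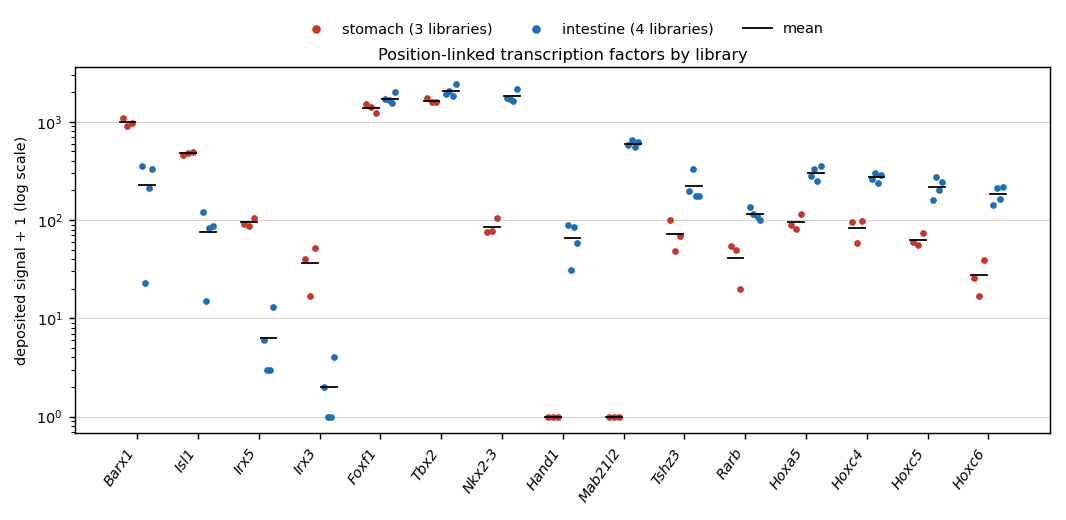
Signal + 1 (log scale) of 15 position-linked transcription factors, with 1 point per library (red, 3 stomach; blue, 4 intestine) and a line at the mean. Nkx2-3, Hand1 and Mab21l2 show the widest gaps toward intestine, and Barx1 and Isl1 show intestine 2 far below the other intestine libraries.

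Rdh10, Aldh1a2 and Aldh1a3, enzymes that make retinoic acid, were higher in intestine. Of 17 genes of the pathway, 7 were higher in intestine and 3 higher in stomach (median -0.25), against 1 and 0 over the 22 libraries. The share toward stomach was near the 19.4% of all tested genes. Without intestine replicate 4 the count toward stomach was 5. Rdh10, which oxidises retinol to retinal, was at 586, 663 and 588 in stomach and 2299, 2441, 2212 and 2634 in intestine (log2 difference -1.97 ± 0.10 (SE), adjusted p = 8.66e-08). Aldh1a2 and Aldh1a3 carry out the next step, from retinal to retinoic acid. Aldh1a2 was at 533, 458 and 550 in stomach and 1706, 1752, 1609 and 1994 in intestine (log2 difference -1.78 ± 0.11 (SE), adjusted p = 4.21e-07). Aldh1a3 (ENSMUSG00000015134, mm39 chr7:66040638-66077265) was at 297, 216 and 260 in stomach and 3154, 3040, 2856 and 3534 in intestine (log2 difference -3.61 ± 0.12 (SE), adjusted p = 6.05e-09), 12.2-fold higher in intestine by its mean. Neither range came near the other, and all 3 enzymes lie near the ceiling. Genes that remove retinoic acid or respond to it differed as well. Cyp26b1, which degrades retinoic acid, was at 8, 3 and 4 in stomach and 99, 24, 61 and 43 in intestine (log2 difference -3.18 ± 0.48 (SE), adjusted p = 0.000349). The receptor Rarb, itself a retinoic acid target, was at 53, 49 and 19 in stomach and 136, 114, 110 and 99 in intestine (log2 difference -1.61 ± 0.33 (SE), adjusted p = 0.00273). Dhrs3, which returns retinal to retinol, was higher in stomach, at 940, 843 and 776 in stomach and 630, 635, 592 and 679 in intestine (log2 difference 0.42 ± 0.10 (SE), adjusted p = 0.00741), and lost its call without stomach replicate 1 (adjusted p = 0.0578). Dhrs9, another retinol dehydrogenase, also passed toward stomach, from low values of 25, 22 and 10 in stomach and 10, 1, 3 and 1 in intestine whose ranges met (log2 difference 2.36 ± 0.63 (SE), adjusted p = 0.0123). Its call was lost without stomach replicate 1 (adjusted p = 0.0676) or stomach replicate 2 (adjusted p = 0.0596). Outside the list, Lrat, which esterifies retinol for storage (ENSMUSG00000028003, mm39 chr3:82799886-82811280), was at 1, 0 and 0 in stomach and 1978, 2035, 1699 and 1426 in intestine (adjusted p = 2.04e-09). Only 1 of 3 stomach libraries had any signal for it. Over the 22 libraries the adjusted p was 5.23e-07 for Lrat, 0.0481 for Aldh1a2 and 0.0721 for Aldh1a3.

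Ligands and responders of the hedgehog pathway moved in opposite directions. Of 15 tested members, 4 were higher in stomach and 8 higher in intestine, against 1 and 0 over all 22 libraries. Without stomach replicate 2 the count toward stomach was 2. The ligands Ihh and Shh were higher in stomach. Ihh was at 604, 650 and 578 in stomach and 94, 67, 140 and 103 in intestine (log2 difference 2.63 ± 0.22 (SE), adjusted p = 3.75e-06). Shh, from a few reads in intestine, was at 69, 83 and 64 in stomach and 6, 0, 1 and 0 in intestine (log2 difference 5.23 ± 0.64 (SE), adjusted p = 7.22e-05). Both ligands are known from gut epithelium, and the gastric epithelial sums given above were higher in the same 3 libraries. A receptor and targets of the pathway were higher in intestine. Ptch1, the hedgehog receptor and a target of the pathway, was at 819, 690 and 653 in stomach and 1693, 2103, 1675 and 1425 in intestine (log2 difference -1.25 ± 0.13 (SE), adjusted p = 2.75e-05). Gli1, the transcription factor whose RNA follows pathway activity, was at 194, 175 and 216 in stomach and 365, 489, 455 and 513 in intestine (log2 difference -1.21 ± 0.15 (SE), adjusted p = 7.28e-05). Hhip, a decoy receptor and target, was at 1769, 1844 and 1403 in stomach and 3448, 3036, 2876 and 2782 in intestine (log2 difference -0.87 ± 0.12 (SE), adjusted p = 0.000134). No intestine library overlapped a stomach library for these 3 genes, and none of the 3 passed in the wider fit, where their adjusted p-values were 0.424, 0.901 and 1. The co-receptor Gas1 was higher in stomach, at 1606, 1432 and 1586 in stomach and 1083, 917, 1030 and 1223 in intestine (log2 difference 0.54 ± 0.11 (SE), adjusted p = 0.00239).

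Within the BMP list 6 of 30 members were higher in stomach and 11 higher in intestine, with 0 and 2 over all 22 libraries. The share toward stomach was near the 19.4% of all tested genes. Bmp3, an atypical BMP that restrains signalling (ENSMUSG00000029335, mm39 chr5:99002274-99032255), was at 43, 37 and 45 in stomach and 906, 1040, 951 and 683 in intestine (log2 difference -4.38 ± 0.17 (SE), adjusted p = 1.3e-08), under the ceiling. Its intestine mean was 21.5-fold that of stomach, and its adjusted p over the 22 libraries was 0.0042. Bmp7 was at 428, 382 and 476 in stomach and 1229, 1607, 1245 and 1415 in intestine (log2 difference -1.68 ± 0.12 (SE), adjusted p = 1.75e-06). The antagonist Chrd was at 154, 176 and 235 in stomach and 546, 748, 645 and 627 in intestine (log2 difference -1.78 ± 0.16 (SE), adjusted p = 8.78e-06). Higher in stomach was Chrdl2, another antagonist, at 139, 140 and 146 in stomach and 26, 31, 19 and 32 in intestine (log2 difference 2.38 ± 0.25 (SE), adjusted p = 2.2e-05). Fst, which traps activins and BMPs, was at 309, 348 and 398 in stomach and 101, 215, 80 and 126 in intestine (log2 difference 1.52 ± 0.28 (SE), adjusted p = 0.00137). In the transforming growth factor beta and activin list, 10 of 21 were higher in intestine and 0 in stomach, where 2 passed without stomach replicate 3 and 1 without intestine replicate 2. Among the 12 members under the ceiling, 2 were higher in intestine and 0 in stomach (median log2 difference 0.07), near the 18.3% of all tested genes toward intestine. Inhbb and Inhba, the activin subunits, led the calls toward intestine. Inhbb was at 83, 50 and 71 in stomach and 685, 921, 716 and 785 in intestine (log2 difference -3.52 ± 0.18 (SE), adjusted p = 1.36e-07). Inhba was at 101, 84 and 90 in stomach and 221, 327, 225 and 294 in intestine (log2 difference -1.51 ± 0.18 (SE), adjusted p = 6.85e-05). Lrrc32, which holds latent transforming growth factor beta at the cell surface, was at 1496, 1126 and 1182 in stomach and 2907, 2982, 2614 and 3139 in intestine (log2 difference -1.21 ± 0.11 (SE), adjusted p = 1.01e-05). The fit over all 22 libraries kept 2 of these list members, with adjusted p = 0.04 for Inhba and 0.00164 for Lrrc32.

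Wnt pathway genes went both ways, with 16 of 42 higher in stomach and 12 higher in intestine (median 0.21, 3 and 3 over the 22 libraries). The widest gap was Sfrp2, a secreted Wnt modulator also known as a fibroblast gene (ENSMUSG00000027996, mm39 chr3:83673628-83681623), at 814, 638 and 1042 in stomach and 5, 2, 3 and 10 in intestine (log2 difference 7.26 ± 0.41 (SE), adjusted p = 2.47e-07). Wnt11 was at 122, 135 and 118 in stomach and 19, 5, 8 and 13 in intestine (log2 difference 3.50 ± 0.39 (SE), adjusted p = 3.81e-05). Rspo4, a Wnt agonist, was at 47, 25 and 53 in stomach and 1, 0, 0 and 0 in intestine (log2 difference 5.10 ± 0.49 (SE), adjusted p = 1.15e-05). Toward intestine, Wnt2b was at 15, 24 and 29 in stomach and 153, 196, 143 and 150 in intestine (log2 difference -2.81 ± 0.26 (SE), adjusted p = 9.21e-06). The secreted antagonist Wif1 was at 29, 12 and 41 in stomach and 129, 192, 151 and 153 in intestine (log2 difference -2.62 ± 0.35 (SE), adjusted p = 0.000153). Frzb, another, was at 114, 40 and 107 in stomach and 383, 469, 358 and 452 in intestine (log2 difference -2.37 ± 0.31 (SE), adjusted p = 0.000116). Every one of these genes separated the organs without overlap. Of the Notch list 6 of 22 members were higher in intestine and 1 in stomach, with 1 and 0 over the 22 libraries, and 2 in stomach without intestine replicate 4. Notch3, the receptor that maintains arterial smooth muscle, was at 991, 1064 and 1358 in stomach and 2243, 2752, 2214 and 2393 in intestine (log2 difference -1.08 ± 0.12 (SE), adjusted p = 4.16e-05). The ligand Dll1 was at 149, 138 and 136 in stomach and 386, 494, 389 and 412 in intestine (log2 difference -1.56 ± 0.14 (SE), adjusted p = 6.07e-06). Hey2, a target, was at 65, 51 and 87 in stomach and 204, 148, 151 and 190 in intestine (log2 difference -1.36 ± 0.22 (SE), adjusted p = 0.000587).

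Receptors for vasoactive substances were more often higher in intestine. Of 69 tested genes for receptors, their ligands and converting enzymes, 36 were higher in intestine and 13 higher in stomach, with a median log2 difference of -0.63. In the wider fit 7 and 6 passed. Under the ceiling the counts were 26 and 12 of 58. At least 2-fold, 22 were higher in intestine and 12 in stomach. The 13 of 69 toward stomach were near the 19.4% of all tested genes, a background that was 10.3% at 2-fold or more.

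Among endothelin genes, Ednrb, the endothelin B receptor (ENSMUSG00000022122, mm39 chr14:104052061-104081838), was at 766, 822 and 621 in stomach and 3135, 3175, 2813 and 2872 in intestine (log2 difference -2.03 ± 0.11 (SE), adjusted p = 1.7e-07). All 4 intestine libraries exceeded all 3 of stomach, and the adjusted p over the 22 libraries was 0.485. Ece1, which cleaves the endothelin precursor, was at 1467, 1488 and 1407 in stomach and 2307, 2490, 2082 and 2055 in intestine (log2 difference -0.61 ± 0.09 (SE), adjusted p = 0.000344). The amine receptors Hrh1, for histamine, and Adrb1, for catecholamines, were also higher in intestine. Hrh1 was at 11, 15 and 17 in stomach and 229, 342, 242 and 272 in intestine (log2 difference -4.15 ± 0.23 (SE), adjusted p = 2.43e-07), a mean 18.9-fold higher, and Adrb1 at 15, 20 and 20 in stomach and 122, 177, 148 and 167 in intestine (mean 8.37-fold higher, adjusted p = 2.64e-06 by limma). Vipr1, a receptor for vasoactive intestinal peptide that is also known from gut epithelium, was at 7, 8 and 4 in stomach and 228, 133, 285 and 197 in intestine (log2 difference -4.84 ± 0.32 (SE), adjusted p = 8.06e-07). Aplnr, the apelin receptor, was at 162, 112 and 215 in stomach and 1060, 1439, 955 and 906 in intestine (log2 difference -2.76 ± 0.22 (SE), adjusted p = 2.71e-06). A further 4 receptors, chosen after their values were seen, were Agtr1a for angiotensin, P2rx1 for ATP, Bdkrb2 for bradykinin and Nmur1 for neuromedin U. Agtr1a was at 45, 66 and 84 in stomach and 381, 482, 295 and 338 in intestine (log2 difference -2.53 ± 0.23 (SE), adjusted p = 9.15e-06). P2rx1 was at 344, 235 and 231 in stomach and 1217, 1314, 1312 and 1512 in intestine (log2 difference -2.33 ± 0.15 (SE), adjusted p = 6.05e-07). Bdkrb2 was at 379, 360 and 342 in stomach and 1392, 1537, 1370 and 1434 in intestine (log2 difference -1.99 ± 0.09 (SE), adjusted p = 7.04e-08). Nmur1 was at 52, 38 and 37 in stomach and 276, 382, 300 and 359 in intestine (log2 difference -2.93 ± 0.19 (SE), adjusted p = 8.06e-07). None of the 4 overlapped between the organs. Over the 22 libraries Hrh1, Vipr1, Agtr1a, P2rx1 and Nmur1 passed, with adjusted p = 0.00854, 0.00106, 0.0207, 0.0427 and 0.00544.

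Receptors higher in stomach included several known from gastric secretory cells. Cckar, the cholecystokinin A receptor, was at 952, 977 and 874 in stomach and 16, 16, 13 and 17 in intestine (log2 difference 5.83 ± 0.19 (SE), adjusted p = 5.94e-09), and passed over the 22 libraries too (adjusted p = 3.59e-07). Cckbr, the gastrin receptor, was at 104, 178 and 131 in stomach and 8, 0, 0 and 0 in intestine (log2 difference 6.29 ± 0.73 (SE), adjusted p = 4.7e-05). Hrh2, the histamine receptor of parietal cells, was at 224, 281 and 182 in stomach and 16, 3, 3 and 1 in intestine (log2 difference 5.55 ± 0.59 (SE), adjusted p = 2.63e-05). Sstr2, for somatostatin, was at 105, 140 and 94 in stomach and 6, 0, 4 and 2 in intestine (log2 difference 5.13 ± 0.59 (SE), adjusted p = 4.42e-05). Gastric markers were higher in the same libraries, and their part in these 4 results was not tested. Tacr2, the tachykinin receptor of visceral smooth muscle, was at 49, 75 and 80 in stomach and 13, 9, 10 and 6 in intestine (log2 difference 2.73 ± 0.34 (SE), adjusted p = 9.13e-05).

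**Figure D4:**
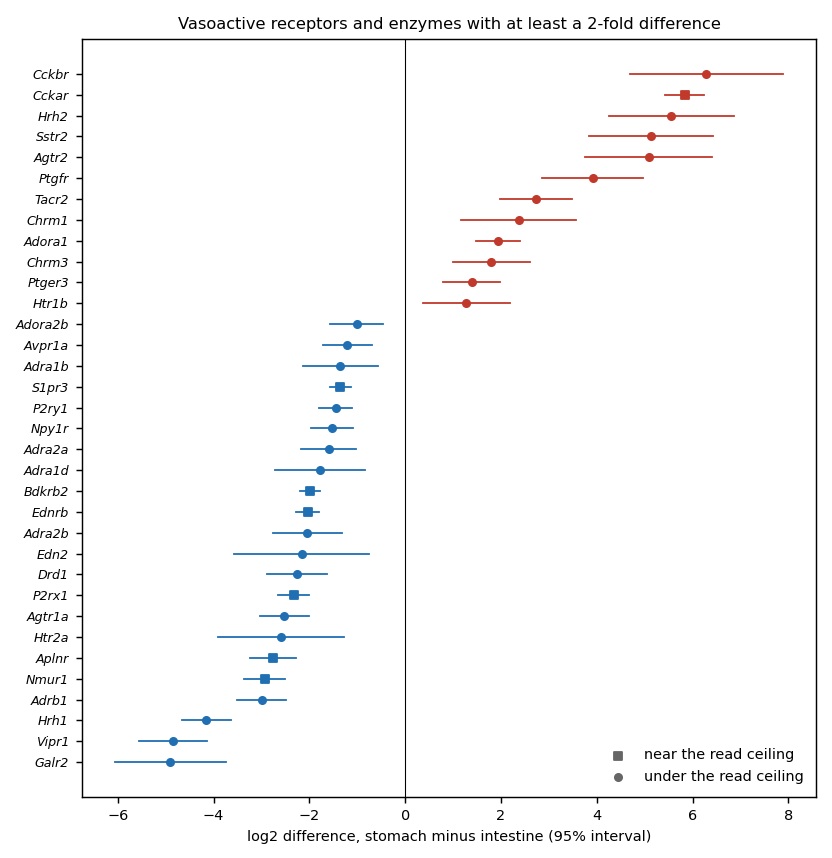
Log2 difference, stomach minus intestine, with its 95% interval from limma, for the 34 vasoactive genes that passed the test with at least a 2-fold difference. Red marks the 12 higher in stomach, blue the 22 higher in intestine, and squares the 7 near the read ceiling.

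Genes that relax smooth muscle through cyclic nucleotides were more often higher in intestine. Of 24 tested, 13 were higher in intestine and 3 higher in stomach (median -0.56), with 2 and 0 over the 22 libraries. Gucy1a1 and Gucy1b1 encode the nitric oxide receptor. Gucy1b1 was at 659, 674 and 712 in stomach and 1598, 1547, 1459 and 1193 in intestine (log2 difference -1.08 ± 0.11 (SE), adjusted p = 2.26e-05). Gucy1a1 was at 1256, 1307 and 1280 in stomach and 2294, 2051, 2031 and 1486 in intestine (log2 difference -0.60 ± 0.13 (SE), adjusted p = 0.00409). Both lie near the ceiling, and every intestine library exceeded every stomach library. The phosphodiesterase Pde9a, specific for cyclic GMP, was at 125, 119 and 148 in stomach and 406, 484, 409 and 412 in intestine (log2 difference -1.71 ± 0.14 (SE), adjusted p = 3.46e-06). Pde1c was at 119, 129 and 130 in stomach and 381, 545, 412 and 245 in intestine (log2 difference -1.59 ± 0.23 (SE), adjusted p = 0.000222). Higher in stomach was Pde4d, at 189, 197 and 224 in stomach and 126, 151, 118 and 104 in intestine (log2 difference 0.71 ± 0.17 (SE), adjusted p = 0.00749). The adenylyl cyclase Adcy6 was at 367, 427 and 503 in stomach and 279, 246, 243 and 290 in intestine (log2 difference 0.70 ± 0.14 (SE), adjusted p = 0.00236).

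Among potassium channels 16 of 33 were higher in intestine and 5 higher in stomach, with 2 and 0 over all 22 libraries. Without stomach replicate 2 the count toward stomach was 3. Kcnj8 and Abcc9 encode the pore and the regulatory subunit of the vascular ATP-sensitive channel, whose opening relaxes arteries. Kcnj8 was at 372, 311 and 450 in stomach and 1217, 1276, 1164 and 1358 in intestine (log2 difference -1.74 ± 0.13 (SE), adjusted p = 1.8e-06). Abcc9 was at 684, 537 and 579 in stomach and 1701, 1633, 1387 and 831 in intestine (log2 difference -1.16 ± 0.21 (SE), adjusted p = 0.00134). Abcc8, the subunit better known from endocrine cells, was higher in stomach, at 37, 40 and 74 in stomach and 19, 20, 9 and 8 in intestine (log2 difference 1.81 ± 0.41 (SE), adjusted p = 0.00499). Kcnq1, found in both smooth muscle and parietal cells, was at 1693, 1736 and 1487 in stomach and 284, 261, 448 and 390 in intestine (log2 difference 2.27 ± 0.18 (SE), adjusted p = 2.54e-06) beside the higher gastric sums. Kcnk2, a mechanosensitive potassium channel, was at 17, 27 and 78 in stomach and 230, 240, 198 and 200 in intestine (log2 difference -2.67 ± 0.40 (SE), adjusted p = 0.00031).

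Among calcium handling genes 11 of 36 were higher in intestine and 7 in stomach, the latter near the 19.4% of all tested genes. Over the 22 libraries 1 passed toward stomach and 0 toward intestine. Toward stomach 3 passed without stomach replicate 1 and also without stomach replicate 2. Toward intestine, the ryanodine receptor Ryr2 was at 22, 10 and 13 in stomach and 110, 70, 85 and 73 in intestine (log2 difference -2.46 ± 0.31 (SE), adjusted p = 9.82e-05). Cacna1d, a calcium channel subunit, was at 49, 29 and 44 in stomach and 156, 178, 177 and 162 in intestine (log2 difference -2.05 ± 0.22 (SE), adjusted p = 2.69e-05). Pln, the inhibitor of the calcium pump, was at 33, 54 and 55 in stomach and 175, 88, 161 and 124 in intestine (log2 difference -1.50 ± 0.28 (SE), adjusted p = 0.0016). The pump Atp2a1 and its inhibitor Sln, both known from striated muscle, were higher in stomach, where the striated muscle sum was also higher. Atp2a1 was at 162, 84 and 100 in stomach and 2, 2, 3 and 3 in intestine (log2 difference 5.01 ± 0.36 (SE), adjusted p = 1.46e-06). Piezo2, a stretch-gated channel, was at 159, 185 and 116 in stomach and 80, 53, 62 and 67 in intestine (log2 difference 1.20 ± 0.23 (SE), adjusted p = 0.00157), while 4 of 13 channels in its list were higher in intestine and 0 over the 22 libraries.

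Gap junction genes had the highest share of calls toward intestine among the 38 lists plotted below. In all, 6 of 7 were higher there and 0 in stomach (median -1.05), and 4 also passed over all 22 libraries. Without intestine replicate 1, 1 member passed toward stomach. Gja1, the connexin 43 that couples smooth muscle cells, was at 1035, 1008 and 898 in stomach and 2476, 2431, 2210 and 2412 in intestine (log2 difference -1.28 ± 0.09 (SE), adjusted p = 1.24e-06). Gja4, an arterial connexin, was at 451, 379 and 453 in stomach and 691, 671, 639 and 777 in intestine (log2 difference -0.70 ± 0.11 (SE), adjusted p = 0.000597). Gjb2, known from epithelia, was at 23, 14 and 16 in stomach and 81, 80, 156 and 144 in intestine (log2 difference -2.60 ± 0.32 (SE), adjusted p = 7.44e-05). Gja5, an endothelial connexin and the member that did not pass, was at 228, 158 and 187 in stomach and 193, 131, 142 and 82 in intestine (adjusted p = 0.142) and its ranges overlapped. It was named after its values were seen.

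Pericyte and mural cell genes were also higher in intestine. Of 19 markers, 14 were higher in intestine and 1, Anpep, higher in stomach (median -0.94), with 4 and 0 over the 22 libraries. Their summed signal was 12280, 11434 and 12738 in stomach and 20303, 20683, 18818 and 18712 in intestine, with no overlap. Pdgfrb, the platelet-derived growth factor receptor of mural cells, was at 1560, 1436 and 1673 in stomach and 3273, 3307, 2797 and 2608 in intestine (log2 difference -0.94 ± 0.11 (SE), adjusted p = 4.22e-05). Rgs4, a regulator of G protein signalling, was at 606, 618 and 457 in stomach and 1607, 1591, 1629 and 1501 in intestine (log2 difference -1.51 ± 0.12 (SE), adjusted p = 2.44e-06). Colec11, a collectin, was at 16, 39 and 31 in stomach and 241, 238, 188 and 210 in intestine (log2 difference -2.97 ± 0.28 (SE), adjusted p = 1.07e-05). Rgs5 was at 2366, 2211 and 2211 in stomach and 3042, 2460, 2595 and 2682 in intestine (adjusted p = 0.0546), near the ceiling. Anpep, an aminopeptidase that is also a brush border enzyme, was at 1411, 1591 and 1347 in stomach and 488, 506, 566 and 452 in intestine (log2 difference 1.53 ± 0.11 (SE), adjusted p = 1.45e-06). Cspg4 drives one recombinase of the sort, so its higher level in intestine and the composition of the sorted cells cannot be told apart.

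Contractile genes differed little. Of 40 tested, 1 was higher in stomach and 7 higher in intestine, with a median log2 difference of -0.04, and none passed over the 22 libraries. The share toward intestine was near the 18.3% of all tested genes. The count toward intestine was 2 without stomach replicate 2, 3 without stomach replicate 1 or intestine replicate 1, and 4 without intestine replicate 3. The count toward stomach was 4 without intestine replicate 4. As 24 of them lie near the ceiling, the measurement could have missed differences there. Among the 16 under it, 3 were higher in intestine and 0 in stomach. Tagln, the actin-binding protein transgelin, was at 185, 162 and 159 in stomach and 153, 152, 160 and 203 in intestine (log2 difference 0.02 ± 0.16 (SE), adjusted p = 0.932). Actg2, the actin of visceral muscle, named after its values were seen, was at 1646, 1414 and 1189 in stomach and 1193, 1073, 1060 and 1433 in intestine (adjusted p = 0.176). Smtnl2, a smoothelin-like protein, showed the widest difference, at 175, 151 and 257 in stomach and 1015, 1227, 961 and 1102 in intestine (log2 difference -2.49 ± 0.17 (SE), adjusted p = 1.07e-06). Ppp1r12a, the targeting subunit of myosin phosphatase, was at 1319, 1307 and 1421 in stomach and 2101, 1820, 2036 and 2027 in intestine (log2 difference -0.56 ± 0.09 (SE), adjusted p = 0.00041). Hspb6, a small heat shock protein of relaxation, was at 643, 592 and 740 in stomach and 487, 311, 405 and 503 in intestine (log2 difference 0.64 ± 0.17 (SE), adjusted p = 0.0102). Among regulators of G protein signalling, which shorten receptor responses, 3 of 15 were higher in stomach and 6 in intestine, with 0 and 2 in the wider fit. Their share toward stomach was near the 19.4% of all tested genes. Rgs11 was at 512, 530 and 485 in stomach and 95, 63, 74 and 58 in intestine (log2 difference 2.82 ± 0.19 (SE), adjusted p = 8.23e-07). Rgs9 was at 16, 19 and 28 in stomach and 106, 98, 80 and 95 in intestine (log2 difference -2.15 ± 0.26 (SE), adjusted p = 6.83e-05).

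Matrix genes showed a few wide differences. The fibrillar and related collagen list had 2 of 20 members higher in stomach and 7 higher in intestine, against 1 and 0 over all 22 libraries. Without stomach replicate 3 the count toward stomach was 5. Of the 20, 14 lie near the ceiling, where the measurement could have missed differences. Among the 6 under it, 2 were higher in stomach and 3 in intestine (median log2 difference -0.36). Col8a1, a short-chain collagen of injured arteries, was at 1990, 1719 and 1799 in stomach and 411, 330, 378 and 321 in intestine (log2 difference 2.35 ± 0.12 (SE), adjusted p = 8.67e-08). Col6a5 was at 542, 551 and 611 in stomach and 2140, 3271, 2228 and 1593 in intestine (log2 difference -1.97 ± 0.19 (SE), adjusted p = 1.22e-05). Col23a1, a transmembrane collagen, was at 208, 253 and 348 in stomach and 1461, 1433, 1148 and 1161 in intestine (log2 difference -2.29 ± 0.17 (SE), adjusted p = 1.77e-06). Col3a1, near the ceiling, was at 6796, 5759 and 4917 in stomach and 5006, 4529, 4444 and 5814 in intestine (adjusted p = 0.174). Of basement membrane genes 9 of 24 were higher in intestine and 3 in stomach, with 0 and 1 in the wider fit. Among the 14 of them under the ceiling, 3 were higher in intestine and 3 in stomach (median log2 difference 0.12). Lama4, the laminin chain of vessels, was at 1407, 1191 and 1390 in stomach and 3580, 3774, 3134 and 2590 in intestine (log2 difference -1.29 ± 0.13 (SE), adjusted p = 1.73e-05). Lamb3, a chain of epithelial laminin, was at 451, 505 and 512 in stomach and 28, 22, 16 and 31 in intestine (log2 difference 4.32 ± 0.24 (SE), adjusted p = 2.43e-07) beside the higher gastric sums.

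Elastic fibre genes went both ways when all 22 were counted, with 6 higher in stomach and 9 in intestine. Most of them, 15, lie near the ceiling. When only the 7 members below that limit were counted, 1 was higher in stomach and 5 in intestine (median log2 difference -0.71). Eln, elastin itself, was at 4675, 4022 and 3426 in stomach and 2401, 2299, 2106 and 2672 in intestine (log2 difference 0.76 ± 0.12 (SE), adjusted p = 0.000388). Lox, which crosslinks it, was at 2181, 2129 and 1829 in stomach and 893, 602, 812 and 447 in intestine (log2 difference 1.62 ± 0.20 (SE), adjusted p = 8.74e-05). Toward intestine, Loxl4, a relative of Lox, was at 185, 149 and 188 in stomach and 440, 662, 399 and 382 in intestine (log2 difference -1.40 ± 0.19 (SE), adjusted p = 0.000164). Fbn2, a fibrillin, was at 93, 174 and 99 in stomach and 256, 375, 270 and 206 in intestine (log2 difference -1.20 ± 0.25 (SE), adjusted p = 0.003). Over the 22 libraries Lox (adjusted p = 0.0248) and Mfap5 (adjusted p = 0.0433) passed. Mfap5, a microfibril protein of adventitial cells, was at 1367, 1160 and 1065 in stomach and 644, 408, 494 and 616 in intestine (log2 difference 1.16 ± 0.16 (SE), adjusted p = 0.000178). Of proteoglycan and matricellular genes 10 of 37 were higher in stomach and 6 in intestine, with 4 and 0 in the wider fit. Spp1, osteopontin, was at 1640, 1402 and 1140 in stomach and 61, 18, 21 and 32 in intestine (log2 difference 5.50 ± 0.35 (SE), adjusted p = 5.91e-07). Tnn, tenascin N, was at 253, 328 and 216 in stomach and 21, 20, 22 and 10 in intestine (log2 difference 3.83 ± 0.30 (SE), adjusted p = 2.99e-06). Tnc, tenascin C, was higher in intestine, at 3181, 3115 and 2895 in stomach and 5073, 4974, 4328 and 4063 in intestine (log2 difference -0.58 ± 0.10 (SE), adjusted p = 0.000677).

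Receptors and enzymes that act on matrix were more often higher in intestine. Integrins had 8 of 18 higher in intestine and 3 higher in stomach, with 1 and 1 over the 22 libraries. Itga11, the collagen-binding integrin of mesenchymal cells (ENSMUSG00000032243, mm39 chr9:62585108-62691264), was at 202, 209 and 263 in stomach and 2093, 2524, 1921 and 1739 in intestine (log2 difference -3.19 ± 0.14 (SE), adjusted p = 4.34e-08), and passed in the wider fit (adjusted p = 0.0066). Itga4 was at 106, 119 and 92 in stomach and 376, 369, 250 and 276 in intestine (log2 difference -1.56 ± 0.19 (SE), adjusted p = 5.87e-05). The epithelial integrin chain Itgb6 was higher in stomach, at 619, 711 and 452 in stomach and 52, 35, 31 and 29 in intestine (log2 difference 3.99 ± 0.24 (SE), adjusted p = 4.23e-07). Of matrix proteases and their inhibitors 14 of 30 were higher in intestine, 3 in stomach and 1 in intestine in the wider fit, which was Mmp10. Mmp10, a stromelysin, was at 2, 1 and 4 in stomach and 1488, 1382, 1330 and 1794 in intestine (log2 difference -8.90 ± 0.28 (SE), adjusted p = 5.58e-09), with at most 4 units of signal in any stomach library. Mmp3, the other stromelysin, was at 15, 18 and 38 in stomach and 175, 152, 145 and 154 in intestine (log2 difference -2.78 ± 0.30 (SE), adjusted p = 2.75e-05). Timp1, an inhibitor of these proteases, was higher in stomach, at 305, 252 and 262 in stomach and 88, 101, 44 and 89 in intestine (log2 difference 1.81 ± 0.27 (SE), adjusted p = 0.000274).

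Fibroblast markers differed by gene more than as a list, with 7 of 22 higher in stomach and 7 higher in intestine, and 3 and 1 over the 22 libraries. Without intestine replicate 4 the count toward stomach was 11. Their sums were 27258, 24614 and 24873 in stomach and 24266, 22154, 21704 and 23497 in intestine. Pi16, a marker of adventitial fibroblasts (ENSMUSG00000024011, mm39 chr17:29536654-29549567), was at 1333, 1020 and 1325 in stomach and 68, 42, 41 and 47 in intestine (log2 difference 4.62 ± 0.20 (SE), adjusted p = 3.45e-08). Scara5 was at 585, 531 and 826 in stomach and 69, 33, 46 and 40 in intestine (log2 difference 3.78 ± 0.25 (SE), adjusted p = 9.32e-07). Pdgfra, a receptor of fibroblasts and of cells beneath the epithelium, was at 1958, 1989 and 1943 in stomach and 5111, 5130, 4580 and 4046 in intestine (log2 difference -1.26 ± 0.10 (SE), adjusted p = 2.52e-06). Sox6 was at 136, 78 and 119 in stomach and 726, 1014, 815 and 824 in intestine (log2 difference -2.94 ± 0.19 (SE), adjusted p = 6.73e-07). Whether these reads came from the sorted muscle cells or from other cells was not tested.

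Genes of the interferon response and of antigen presentation were higher in intestine. Of 53 tested, 34 were higher in intestine and 3 higher in stomach, with a median log2 difference of -0.75. Without stomach replicate 1 the count toward stomach was 1. Under the ceiling the counts were 26 and 2 of 38, and over all 22 libraries 5 and 1 passed. A pair of DNA elements is known to bring such genes under interferon control, so promoters of 3 genes of the list are shown. They were chosen after their values were seen, as members with such an element, and are the 250 bases before the gene start from RefSeq on GRCm38.p6, 5′ to 3′ on the gene's strand. Capitals mark the interferon-stimulated response element, GAAANNGAAA, and the gamma-activated site, TTCNNNGAA, each searched on both strands. Igtp is at chr11:58199306-58199555, Gbp2 at chr3:142620413-142620662 and Irf1 at chr11:53769764-53770013, all on the plus strand.
Igtp: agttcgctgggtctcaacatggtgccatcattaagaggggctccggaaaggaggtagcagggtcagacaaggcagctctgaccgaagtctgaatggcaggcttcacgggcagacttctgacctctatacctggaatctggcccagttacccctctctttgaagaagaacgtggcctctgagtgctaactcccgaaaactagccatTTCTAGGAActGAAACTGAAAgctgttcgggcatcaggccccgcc
Gbp2: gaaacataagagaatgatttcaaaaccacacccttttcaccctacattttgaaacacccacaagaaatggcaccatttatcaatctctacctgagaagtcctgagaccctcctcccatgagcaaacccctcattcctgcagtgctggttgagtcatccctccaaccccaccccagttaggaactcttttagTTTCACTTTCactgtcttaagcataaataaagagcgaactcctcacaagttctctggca
Irf1: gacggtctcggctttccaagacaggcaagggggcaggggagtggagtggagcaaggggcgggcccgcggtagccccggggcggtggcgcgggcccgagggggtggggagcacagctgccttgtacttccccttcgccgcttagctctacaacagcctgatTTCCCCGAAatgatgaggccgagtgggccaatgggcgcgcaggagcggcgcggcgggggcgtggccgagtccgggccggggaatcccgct
In Igtp the response element lies 34 bases and the gamma-activated site 45 bases before the start. In Gbp2 a response element, read on the other strand, lies 59 bases before it, and in Irf1 a gamma-activated site lies 90 bases before the start shown. The table holds another Irf1 start, whose window held neither element. Promoters in the RefSeq table matched 23 of the 34 members higher in intestine, and 8 of them (34.8%) held the response element and 6 (26.1%) the gamma-activated site. Of the 19 other tested members 14 matched, with 5 (35.7%) and 3 (21.4%). Among all 27025 genes of that table the shares were 3.5% and 8.1%. A match is a description of letters and not a test of binding, and the shares were not tested against each other.

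Igtp, an immunity-related GTPase, was at 186, 229 and 213 in stomach and 573, 741, 584 and 680 in intestine (log2 difference -1.61 ± 0.13 (SE), adjusted p = 4.09e-06). Gbp2, a guanylate-binding protein, was at 459, 419 and 497 in stomach and 1014, 1019, 931 and 893 in intestine (log2 difference -1.07 ± 0.10 (SE), adjusted p = 1.29e-05). Irf1, the transcription factor that carries interferon signals onward, was at 475, 444 and 523 in stomach and 878, 926, 910 and 1062 in intestine (log2 difference -0.97 ± 0.11 (SE), adjusted p = 3.43e-05). None of the 3 overlapped between organs, and all lie near the ceiling. Over the 22 libraries their adjusted p-values were 0.11, 0.332 and 0.245. The 2 GTPases that the naming rule takes were further apart. Iigp1 was at 113, 153 and 151 in stomach and 1258, 1231, 1063 and 812 in intestine (log2 difference -2.96 ± 0.17 (SE), adjusted p = 3.15e-07), 7.85-fold higher by its mean and past the threshold in the wider fit (adjusted p = 7.01e-05). Ifi47 was at 132, 116 and 101 in stomach and 645, 805, 658 and 716 in intestine (log2 difference -2.59 ± 0.14 (SE), adjusted p = 1.6e-07). The class II gene H2-Aa, known from antigen-presenting cells, was at 25, 7 and 17 in stomach and 62, 47, 150 and 177 in intestine (log2 difference -2.61 ± 0.52 (SE), adjusted p = 0.00212). Its activator Ciita was at 0, 5 and 1 in stomach and 15, 10, 28 and 35 in intestine (log2 difference -3.18 ± 0.64 (SE), adjusted p = 0.00236). Oas2 and Mx1, antiviral genes of the same list, went the other way. Oas2 was at 140, 164 and 114 in stomach and 33, 17, 21 and 10 in intestine (log2 difference 2.82 ± 0.36 (SE), adjusted p = 9.93e-05). Mx1 was at 11, 27 and 46 in stomach and 5, 5, 2 and 3 in intestine (log2 difference 2.46 ± 0.51 (SE), adjusted p = 0.00295).

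Chemokines and cytokines followed the same direction, with 18 of 29 higher in intestine and 2 higher in stomach (median -0.77), and 5 and 0 over the 22 libraries. Without stomach replicate 1 or stomach replicate 3, 1 passed toward stomach. Cxcl5, which attracts neutrophils, was at 10, 14 and 3 in stomach and 332, 440, 298 and 290 in intestine (log2 difference -5.27 ± 0.39 (SE), adjusted p = 1.91e-06). Cxcl13, which attracts B cells, was at 11, 7 and 2 in stomach and 136, 214, 170 and 189 in intestine (log2 difference -4.74 ± 0.42 (SE), adjusted p = 6.77e-06). Cxcl9, an interferon gamma target, was at 3, 8 and 10 in stomach and 64, 102, 58 and 79 in intestine (log2 difference -3.35 ± 0.39 (SE), adjusted p = 4.88e-05). Cxcl12, which arterial and stromal cells make, was at 1751, 1631 and 1733 in stomach and 2747, 2831, 2346 and 2823 in intestine (log2 difference -0.65 ± 0.09 (SE), adjusted p = 0.000215). Il6 was higher in stomach, at 55, 56 and 79 in stomach and 21, 31, 14 and 18 in intestine (log2 difference 1.58 ± 0.32 (SE), adjusted p = 0.00238). Lymphoid marker sums were higher in the same intestine libraries, and macrophage sums were 163 to 211 in stomach and 205 to 313 in intestine. Their part in these results was not tested.

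Angiogenic growth factor and guidance genes leaned toward intestine, while insulin-like growth factor genes went both ways. Of angiogenic and platelet-derived growth factor genes 18 of 37 were higher in intestine and 5 in stomach, with 0 and 1 over the 22 libraries. The count toward stomach was 2 without stomach replicate 1, 3 without stomach replicate 3 and 8 without intestine replicate 1. Vegfc, a lymphatic growth factor, was at 167, 162 and 156 in stomach and 439, 485, 421 and 413 in intestine (log2 difference -1.44 ± 0.12 (SE), adjusted p = 4.94e-06), while its relative Vegfd was higher in stomach, at 228, 207 and 289 in stomach and 85, 45, 86 and 78 in intestine (log2 difference 1.73 ± 0.25 (SE), adjusted p = 0.000233). Fgf9 was at 71, 61 and 82 in stomach and 259, 406, 239 and 231 in intestine (log2 difference -1.95 ± 0.22 (SE), adjusted p = 3.78e-05). The receptor Fgfr2 was at 635, 761 and 816 in stomach and 2156, 2508, 1943 and 1572 in intestine (log2 difference -1.46 ± 0.15 (SE), adjusted p = 2.07e-05). Of axon guidance and neurotrophic genes 17 of 51 were higher in intestine and 10 in stomach, with 2 and 1 in the wider fit. Their share toward stomach was near the 19.4% of all tested genes. Gdnf, the trophic factor of enteric neurons, was at 57, 53 and 48 in stomach and 326, 419, 246 and 272 in intestine (log2 difference -2.53 ± 0.20 (SE), adjusted p = 3.15e-06). Ntf3, neurotrophin 3, was at 211, 245 and 248 in stomach and 588, 728, 628 and 788 in intestine (log2 difference -1.53 ± 0.13 (SE), adjusted p = 5.82e-06). Sema3e, a repellent of growing vessels, was higher in stomach, at 104, 172 and 102 in stomach and 14, 4, 3 and 4 in intestine (log2 difference 4.31 ± 0.46 (SE), adjusted p = 2.74e-05). Ntf3 and Sema3e also passed over the 22 libraries (adjusted p = 0.000168 and 0.000463). Of insulin-like growth factor genes 5 were higher in stomach and 5 in intestine of 17, with 1 and 0 in the wider fit. Igfbp2, which binds the growth factor, was at 726, 683 and 685 in stomach and 74, 40, 54 and 44 in intestine (log2 difference 3.73 ± 0.21 (SE), adjusted p = 2.43e-07). H19, an imprinted RNA, was at 57, 34 and 20 in stomach and 1, 0, 0 and 0 in intestine (log2 difference 4.88 ± 0.51 (SE), adjusted p = 2.42e-05).

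Among metabolic, stress and proliferation genes several lists leaned toward stomach, while lipid handling and iron genes went both ways. Of glycolysis and hypoxia genes 15 of 37 were higher in stomach and 3 in intestine, with 2 and 0 over the 22 libraries. Ldhb, a lactate dehydrogenase subunit, was at 976, 921 and 744 in stomach and 265, 196, 269 and 256 in intestine (log2 difference 1.83 ± 0.15 (SE), adjusted p = 3.3e-06). Adm, adrenomedullin, a vasodilator induced by low oxygen, was at 315, 315 and 274 in stomach and 123, 92, 94 and 118 in intestine (log2 difference 1.50 ± 0.17 (SE), adjusted p = 3.79e-05). Car9, a carbonic anhydrase induced by low oxygen and also known from gastric epithelium, was at 1049, 1064 and 863 in stomach and 140, 165, 282 and 251 in intestine (log2 difference 2.29 ± 0.22 (SE), adjusted p = 1.34e-05). Of nuclear genes of oxidative phosphorylation 12 of 59 were higher in stomach, near the 19.4% of all tested genes. None was higher in intestine, and none passed over the 22 libraries. The count toward stomach rested on single libraries. It was 51 without intestine replicate 4 and 25 without stomach replicate 3. It was 5 without stomach replicate 1, 6 without stomach replicate 2 and 7 without any one of intestine replicates 1, 2 and 3. With array weights it was 54. Of the 59, 40 lie near the ceiling. The median log2 difference was 0.31, beside a worth of 1 read that was 0.24 higher in stomach on the same scale. Among the 19 members under the ceiling the median was 0.29, with 5 higher in stomach and 0 in intestine. Ndufs1, a complex I subunit, was at 1560, 1630 and 1290 in stomach and 916, 868, 996 and 932 in intestine (log2 difference 0.68 ± 0.10 (SE), adjusted p = 0.000388). Gastric marker sums were higher in the same libraries, and their part was not tested. Epas1, a hypoxia factor of vessels, was higher in intestine, at 1297, 1136 and 1370 in stomach and 2365, 2150, 2087 and 2148 in intestine (log2 difference -0.79 ± 0.09 (SE), adjusted p = 6.21e-05).

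Of lipid handling genes 13 of 40 were higher in stomach and 9 in intestine (median -0.05), with 3 and 1 over the 22 libraries. Stomach calls numbered 8 without stomach replicate 1 and also without stomach replicate 2. Fabp3, the fatty acid-binding protein of muscle, was at 133, 134 and 102 in stomach and 2, 5, 3 and 9 in intestine (log2 difference 4.57 ± 0.42 (SE), adjusted p = 9.16e-06). Plin2, a lipid droplet protein, was higher in intestine, at 411, 404 and 441 in stomach and 798, 873, 791 and 909 in intestine (log2 difference -1.01 ± 0.10 (SE), adjusted p = 1.7e-05). Redox genes had 9 of 35 higher in stomach and 2 in intestine, with 4 and 1 in the wider fit. Nfe2l2, the master factor of antioxidant genes, was at 2205, 2174 and 1753 in stomach and 1209, 1141, 1228 and 1212 in intestine (log2 difference 0.76 ± 0.10 (SE), adjusted p = 0.000122). Gclc, which makes glutathione, was at 1009, 1195 and 951 in stomach and 335, 328, 376 and 213 in intestine (log2 difference 1.77 ± 0.18 (SE), adjusted p = 1.86e-05). Nox1, a superoxide-producing oxidase of colon and vessels, was higher in intestine, at 0, 11 and 7 in stomach and 66, 85, 118 and 122 in intestine (log2 difference -4.39 ± 0.70 (SE), adjusted p = 0.000489). In the iron list 4 of 15 were higher in stomach and 5 in intestine (median -0.17), with 0 and 1 in the wider fit. Those toward stomach numbered 2 without stomach replicate 1, stomach replicate 2, intestine replicate 1 or intestine replicate 2. Cybrd1, an iron reductase, was at 204, 223 and 240 in stomach and 1132, 1386, 1047 and 876 in intestine (log2 difference -2.30 ± 0.15 (SE), adjusted p = 6.87e-07) and passed over the 22 libraries (adjusted p = 0.00755).

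Heat shock and endoplasmic reticulum stress genes had 15 of 33 higher in stomach and 1 in intestine, but none passed over the 22 libraries. The count toward stomach was 5 without stomach replicate 1, 7 without stomach replicate 2, 8 without intestine replicate 2 and 9 without intestine replicate 1 or 3. With array weights it was 25. Toward intestine it was 0 without stomach replicate 2 or 3. Of the 33, 19 lie near the ceiling. Asns, asparagine synthetase, was at 1848, 1816 and 1452 in stomach and 327, 340, 409 and 289 in intestine (log2 difference 2.32 ± 0.14 (SE), adjusted p = 3.48e-07). Hspa1b, an inducible heat shock protein, was at 806, 841 and 744 in stomach and 480, 502, 453 and 498 in intestine (log2 difference 0.72 ± 0.10 (SE), adjusted p = 0.00018). Immediate early genes, which cells switch on within minutes of a stimulus, had 12 of 31 higher in stomach and 2 in intestine, with 4 and 0 in the wider fit. The count toward stomach was 19 without intestine replicate 4 and 22 with array weights, and that toward intestine was 1 without stomach replicate 2. Nr4a2, an orphan nuclear receptor, was at 634, 696 and 628 in stomach and 116, 147, 108 and 119 in intestine (log2 difference 2.41 ± 0.14 (SE), adjusted p = 3.81e-07). Arc was at 313, 367 and 348 in stomach and 55, 96, 27 and 36 in intestine (log2 difference 2.82 ± 0.35 (SE), adjusted p = 8.74e-05). Of the 31, 20 lie near the ceiling. Cell cycle genes had 20 of 38 higher in stomach and 2 in intestine (median 0.58), with 1 and 0 over the 22 libraries. Stomach calls of the cycle list numbered 13 without stomach replicate 1 and 11 without stomach replicate 2. Toward intestine it was 1 without stomach replicate 1 or 2 or intestine replicate 2 or 4. E2f1, a factor of S-phase entry, was at 172, 148 and 144 in stomach and 38, 43, 59 and 62 in intestine (log2 difference 1.62 ± 0.23 (SE), adjusted p = 0.000225). Cenpf, a kinetochore protein, was at 216, 266 and 210 in stomach and 93, 62, 148 and 71 in intestine (log2 difference 1.37 ± 0.27 (SE), adjusted p = 0.0022). Cdkn1c, an inhibitor of the cycle, was also higher in stomach, at 539, 449 and 417 in stomach and 148, 157, 172 and 180 in intestine (log2 difference 1.50 ± 0.14 (SE), adjusted p = 1.11e-05), and was the member that passed in the wider fit. Clock genes had 2 of 18 higher in stomach and 5 in intestine, and none passed over all 22 libraries. Without stomach replicate 2, 1 passed toward stomach, and without intestine replicate 4, 9 passed toward intestine.

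**Figure D5:**
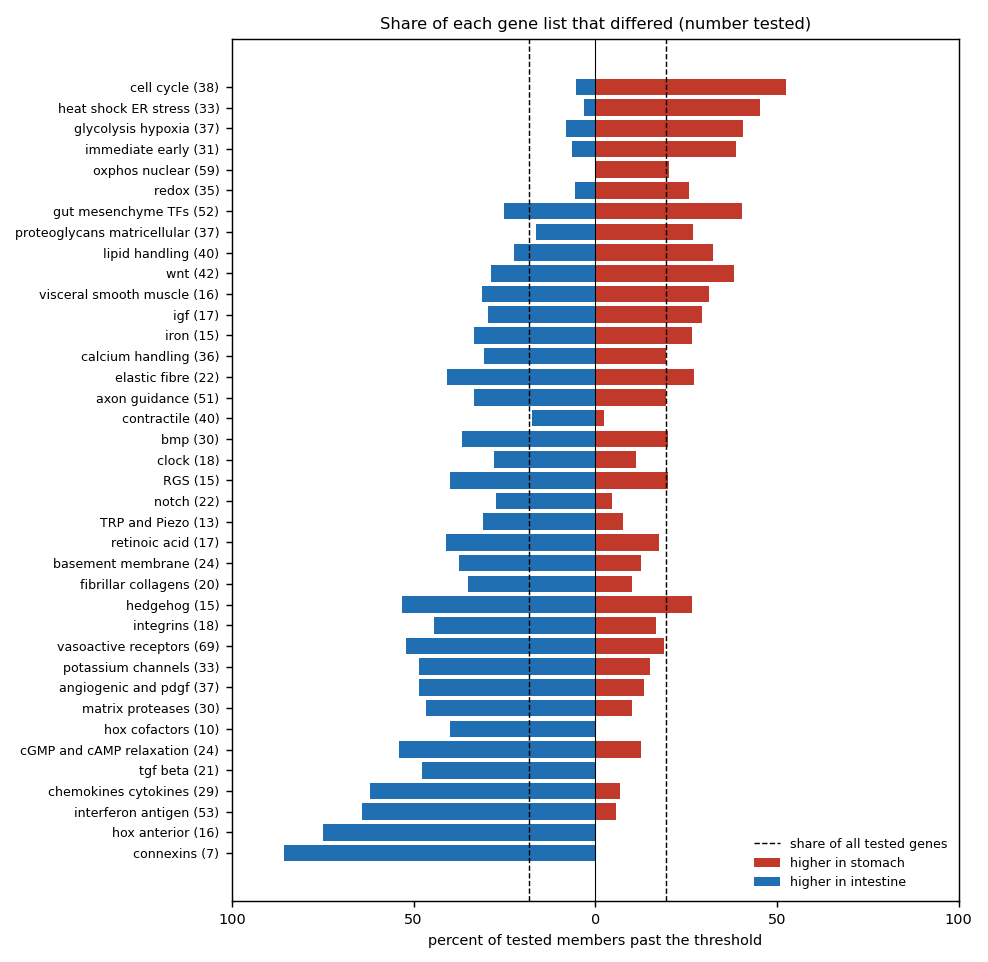
Percent of tested members of 38 gene lists that passed the test, higher in intestine (blue, left) or in stomach (red, right), with the number tested in brackets. Dashed lines mark the shares of all 14934 tested genes, and 18 lists lie above them only toward intestine and 7 only toward stomach.

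By the naming rule, the genes with the widest differences included many known from epithelium, pancreas or plasma. Among the 14 with the widest differences toward stomach, Bpifb1, a secreted protein of mucosal epithelium, was at 2065, 1774 and 1403 and was listed at 0 in all 4 intestine libraries (adjusted p = 2.04e-09). Fa2h, a fatty acid hydroxylase, was at 1098, 1159 and 979 and was also listed at 0 in intestine (adjusted p = 2.69e-09). Kcne2, the potassium channel subunit that parietal cells use, was at 1337, 1365 and 1072 in stomach and 2, 0, 1 and 1 in intestine (log2 difference 9.39 ± 0.37 (SE), adjusted p = 1.63e-08). Gc, the vitamin D-binding protein of plasma, was at 192, 268 and 348 in stomach and 0, 1, 0 and 0 in intestine (log2 difference 7.79 ± 0.41 (SE), adjusted p = 1.46e-07). Toward intestine, Lrat, Cps1 and Mab21l2 differed most. Cps1 and Otc are enzymes of the urea cycle that enterocytes share with liver. Cps1 was at 0, 5 and 6 in stomach and 2698, 2088, 3198 and 2105 in intestine (log2 difference -9.48 ± 0.54 (SE), adjusted p = 2.75e-07), and Otc was listed at 0 in stomach and at 342, 214, 449 and 366 in intestine (adjusted p = 1.29e-08). Glp2r, the receptor for the gut growth hormone GLP-2, known from cells beneath the epithelium, was listed at 0 in stomach and at 266, 269, 217 and 167 in intestine (adjusted p = 1.55e-08). Cdh10, a cadherin, was at 0, 1 and 0 in stomach and 262, 390, 286 and 241 in intestine (log2 difference -7.85 ± 0.34 (SE), adjusted p = 3.68e-08).

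Genes with a mean signal of at least 100 in both organs gave a different picture in intestine. Slco2b1, an organic anion transporter, was at 94, 90 and 133 in stomach and 1371, 1736, 1323 and 1244 in intestine (log2 difference -3.74 ± 0.16 (SE), adjusted p = 3.67e-08). Aldh1b1, a mitochondrial aldehyde dehydrogenase, was at 140, 139 and 160 in stomach and 1292, 1183, 1538 and 1822 in intestine (log2 difference -3.29 ± 0.15 (SE), adjusted p = 5.05e-08). Ggt5, which processes leukotrienes and glutathione, was at 160, 113 and 216 in stomach and 1224, 1536, 1170 and 1588 in intestine (log2 difference -3.11 ± 0.20 (SE), adjusted p = 6.5e-07). Fbln7, a fibulin of the matrix, was at 221, 240 and 291 in stomach and 1525, 1683, 1462 and 1610 in intestine (log2 difference -2.65 ± 0.12 (SE), adjusted p = 3.68e-08). These joined Aldh1a3, Itga11, Iigp1, Aplnr and Ifi47, given above, among the 10 widest. Toward stomach, Foxa1, a forkhead factor of epithelium, was at 1672, 1909 and 1593 in stomach and 177, 59, 90 and 101 in intestine (log2 difference 4.11 ± 0.28 (SE), adjusted p = 1.09e-06). Mecom was at 1377, 1896 and 1338 in stomach and 185, 57, 117 and 46 in intestine (log2 difference 4.11 ± 0.39 (SE), adjusted p = 1.17e-05). A4gnt, which builds the sugar cap of gland mucins, was at 1460, 1488 and 1053 in stomach and 461, 10, 101 and 52 in intestine (log2 difference 4.19 ± 0.90 (SE), adjusted p = 0.00355). For A4gnt, intestine 1 stood far above the other 3 intestine libraries, and the same library had the highest gastric marker sum of intestine. All 10 genes toward stomach also passed over the 22 libraries, while of the 10 toward intestine Itga11 (adjusted p = 0.0066) and Iigp1 (adjusted p = 7.01e-05) did.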

How the data were processed

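RNA of sorted arterial smooth muscle cells was measured in 3 stomach and 4 intestine libraries, grouped by their tissue labels. The authors deposited 1 table of 28099 genes, whose values are a signal: read counts that had been scaled per library and rounded, as judged from the values. The submitters' processing notes name DESeq2 1.36.0, DESeq, featureCounts 2.0.4, STAR 2.7.10a, Trimmomatic 0.39 and Picard 3.0.0 without saying what each did, and the build mm39, which the table's gene coordinates use. The worth of 1 read per library was found from the spacing of low values, between 0.4216 and 0.6654 in these 7 libraries, and gives reads to within about 1 read. A ceiling of 0.5 reads per exonic base used lengths from GENCODE M21 (GRCm38), matched by gene ID for 96.2% of genes. The table held 0 mitochondrial genes.

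The test was limma 3.58.1 (R 4.3.3) with a variance trend, on values of log2(signal + 1). Genes entered where 3 or more libraries reached a signal of 10, with Benjamini-Hochberg adjustment over all 14934 tested genes. Log2 differences on this scale understate those of low genes. Since the values are not counts, edgeR 4.0.16, DESeq2 1.42.0 and voom were run only as alternatives, on rebuilt reads. The limma script was tested on simulated data. Gene lists are described by counts and medians, with no test of the list.

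The 57 gene lists, the comparison and the fit to 7 libraries were chosen with earlier results of these data known. Named genes follow a rule. It took, in each direction, the 14 widest differences among non-overlapping genes with a mean signal of 100 in the higher organ, the 10 widest with that mean in both organs, and for each list up to 4 passing members in each direction and the 2 highest by mean. Predicted genes, pseudogenes, immunoglobulin segments and markers of other cell types were left out of the first 2 parts, and Acta2, Cspg4, Myh11, Myl9 and Tagln were always included. The text gives 175 of the 440 genes so taken. Those outside the rule are marked in the text. No library pair within an organ agreed within sampling noise, so none was counted as a duplicate.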

Additional observations from a re-analysis of the deposited data

Results flagged for a closer look

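In 16 of 245 groups checked, 1 of the 4 intestine libraries stood apart, its gap to the nearest other library being over the critical share of the whole range for 4 values (Dixon's ratio). Chance alone marks about 1 in 20 groups. The stomach group, with 3 libraries, could not be checked in this way.

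Intestine 1 was high for several genes. Cckbr was at 8 there and listed at 0 in the other 3 libraries (ratio 1.0), Hrh2 was at 16 against 1 to 3 (ratio 0.867), Shh was at 6 against 0 to 1 (ratio 0.833) and Sema3e was at 14 against 3 to 4 (ratio 0.909). The gastric marker sum was also highest in that library, at 8330 against 1346 to 5249. H19 and Rspo4 were at 1 there and listed at 0 elsewhere (ratio 1.0 each). The summed signal of interstitial cell of Cajal markers was 5196 in intestine 1 against 3882 to 4099 (ratio 0.835).

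Intestine 2 was low for Pitx1, at 89 against 206 to 230 (ratio 0.83), beside its low Barx1, Isl1 and gastric marker sum. It was high for Tshz3, at 332 against 174 to 197 (ratio 0.854), Fgf9, at 406 against 231 to 259 (ratio 0.84), and Pde9a, at 484 against 406 to 412 (ratio 0.923). Gc was at 1 there and listed at 0 in the others (ratio 1.0).

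Intestine 4, with the fewest reads of the 4, was high for Tagln, at 203 against 152 to 160 (ratio 0.843), for the summed oxidative phosphorylation genes, at 38083 against 29416 to 30717 (ratio 0.85), and for the summed redox genes, at 21687 against 18954 to 19227 (ratio 0.9). These hold many genes near the ceiling, and 1 read was worth most in that library, at 0.5772 against 0.4216 to 0.4744. Tnn was low there, at 10 against 20 to 22 (ratio 0.833).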

How the results depend on the processing

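Fitting all 22 libraries together changed the counts most: 1035 genes passed in place of 5631, 995 in place of 2973 at 2-fold or more, and 798 in place of 4562 under the ceiling. With the ceiling at 0.2 and 0.1 reads per exonic base, 3040 and 1997 genes lay under it and passed, since fewer genes were counted. The other alternatives moved these 3 counts by less than 1.5 times: median-of-ratios and TMM scaling, pseudocounts of 0.5 and 5, no filter or a filter at 50, array weights, robust variance, voom, edgeR, DESeq2, a refit of the genes under the ceiling, and leaving out each library. Leaving out 1 library gave 3971 (without stomach replicate 2) to 6576 (without intestine replicate 4) genes. With the replicate block, a term for each replicate number, 5991 genes passed. Only intestine 4 bears the number 4, so its term takes up that library, which then adds nothing to the difference. The block and the fit without intestine replicate 4 gave the same median log2 difference for oxidative phosphorylation genes (0.42 in both). Counts of list members toward stomach moved more, as given above for each library left out. With the replicate block they became 48 for oxidative phosphorylation (12), 23 for heat shock (15), 17 for proteoglycans (10), 12 for fibroblast markers (7) and 8 for contractile genes (1), with the count of the fit to 7 libraries in brackets. With array weights the proteoglycan count was 17, glycolysis and hypoxia 23 (15), redox 15 (9), calcium handling 11 (7) and contractile genes 9. Same-numbered libraries did not deviate together (r = -0.038, -0.027 and -0.094 across genes). These deviations, taken from means of 3 and 4 libraries, also hold technical spread. They cannot tell whether the numbers pair samples by animal.

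Of the 177 genes named in the text that passed, 79 also passed over all 22 libraries and 98 did not. In the other 20 settings, where tested, 3 lost their call, Barx1 (robust variance), Dhrs3 (without stomach replicate 1) and Dhrs9 (without stomach replicate 1 or 2), and none reversed. Several named genes that did not pass did so in other settings. Foxf1 passed in 10 of them, Rgs5 in 4, Actg2 and Col3a1 in 3 each, Acta2 and Myl9 in 2 each and Gja5 in 1. Acta2 and Myl9 passed with array weights and with the replicate block. For 2 others the sign changed. The difference of Ddx3y became -0.08 with array weights and -0.13 with the replicate block, and lay between -0.13 and 0.15 when each library was left out. That of Tagln was -0.0 in edgeR and between -0.05 and 0.12 when each library was left out.

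Depth limits genes listed at or near 0, where 3 reads are worth 1.26 to 2.0 units of signal, and the ceiling limits strongly expressed genes, 24 of 40 contractile genes among them. The limit for values at 0 covers counting error only, since the reads carry no molecular identifiers.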
